A study of Mus musculus with 6 samples.

Results

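The 10 genes described here encode secreted or membrane-bound proteins that cut, protect or organise the extracellular matrix: thrombospondin 1 (Thbs1), the aggrecanase-type proteases Adamts1, Adamts4, Adamts5 and Adamts9, the matrix metalloproteinases Mmp2 and Mmp14, and the tissue inhibitors of metalloproteinases Timp1, Timp2 and Timp3. They were chosen by symbol, with earlier results of these data known, and all 10 were found among the 24421 genes of the count table. All 10 also passed the filter on low counts, which kept 12753 genes.

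RNA was sequenced from cultured mouse endothelial cells of the brain, sorted by fluorescence 6 days into co-culture with a vascular niche, after deletion of Fli-1 was induced with 4-OHT (4-hydroxytamoxifen, a ligand that switches on tamoxifen-dependent recombinases). There were 3 libraries labelled knockout (KO) and 3 labelled wild-type (WT), each numbered 1 to 3. The treatment with 4-OHT is stated for both groups; the labels used here name no recombinase or driver, strain, age, niche cell or sorting marker. Nor do they state if replicates are different animals or cultures, so each p-value measures only the spread between these libraries, which may be technical.

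Fli1 encodes an ETS-family transcription factor of endothelial and blood cells. Its own count went against the labels: 76.8, 111 and 77.4 CPM (the gene's count scaled by the TMM-adjusted library size) in KO-labelled libraries, against 45.3, 59.6 and 45.8 CPM in WT-labelled libraries. Which exons were deleted is not stated, and reads from the remaining exons are counted too, so these values do not check the deletion. Every direction below is that of the KO-labelled libraries relative to the WT-labelled libraries. Totals ranged from 17550185 to 21385951 counts. Of 10 endothelial markers none was at 0, and their summed level was 13791 to 15543 CPM in KO-labelled and 12934 to 14538 CPM in WT-labelled libraries. The libraries numbered 2 stood apart in both groups: 10 fibroblast markers summed to 130, 992 and 428 CPM in KO-labelled libraries and 186, 1397 and 463 CPM in WT-labelled libraries. In bulk RNA, fewer cells of a type and less RNA per cell cannot be told apart.

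Extracellular matrix is remodelled by zinc-dependent proteases. ADAMTS proteases carry thrombospondin-type repeats and cleave large proteoglycans such as versican and aggrecan, while matrix metalloproteinases cleave collagens and other matrix proteins. Mmp14 is anchored in the cell membrane and activates the secreted Mmp2 zymogen together with Timp2, and TIMPs block the active site of these enzymes with different preferences, Timp3 being the one that also inhibits ADAMTS proteases. In endothelium this balance shapes sprouting and basement membrane turnover, and thrombospondin 1 is a secreted inhibitor of angiogenesis.

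The 6 proteases are shown by the coding bases of their active site, since this stretch is what puts them in 1 enzyme class and in reach of the TIMPs. Each line gives the 33 coding bases, 5′ to 3′ on the sense strand of the GENCODE M21 transcript (GRCm38), of the zinc-binding motif; capitals mark the codons of the 3 zinc-binding histidines and of the catalytic glutamate.
Adamts1: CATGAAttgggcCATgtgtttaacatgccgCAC
Adamts4: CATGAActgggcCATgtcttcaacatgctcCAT
Adamts9: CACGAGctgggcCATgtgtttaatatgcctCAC
Adamts5: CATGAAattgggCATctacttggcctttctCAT
Mmp2: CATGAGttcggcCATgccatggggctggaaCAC
Mmp14: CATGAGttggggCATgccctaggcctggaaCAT
Adamts1 shared 28 of these 33 bases with Adamts9 and 27 with Adamts4, but 20 with Adamts5. Mmp2 and Mmp14 shared 27. Adamts5 shared 22 with Mmp14, more than with Adamts1.

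The transcripts of the 10 genes covered a wide range of levels. Per kb of exon, the only scale on which different genes are compared here, Thbs1 averaged 1506 ± 124 CPM per kb in KO-labelled and 1271 ± 37.8 CPM per kb in WT-labelled libraries (SD, n = 3 each) and ranked 7 among 12314 tested genes with a length. Timp2 followed at 259 ± 14.7 CPM per kb in KO-labelled and 234 ± 11.8 CPM per kb in WT-labelled libraries, rank 103. Both stood clear of the other 8 genes in every library. Timp1 ranged from 36.9 to 189 CPM per kb over the 6 libraries, Mmp2 from 27.4 to 63.0 and Timp3 from 19 to 67.6, so these 3 overlapped across libraries. On this length Timp1 was above both in every library, and Mmp2 was above Timp3 in every library but WT-labelled replicate 2. Mmp14 lay between 13.6 and 26.5 CPM per kb, Adamts4 between 11.4 and 13.7 and Adamts1 between 7.45 and 12.1. Each range overlapped its neighbour's over the libraries, but within every library Mmp14 was above Adamts4 and Adamts4 above Adamts1. Adamts9 was lower, at 2.75 to 3.93 CPM per kb. Adamts5 lay at 0.338 to 3.16 CPM per kb, overlapping the range of Adamts9 only through the libraries numbered 2, and was below Adamts9 in every library. The length used matters for some genes: with the longest single transcript in place of all exons, Adamts9 averaged 6.12 CPM per kb in KO-labelled and 5.79 in WT-labelled libraries, Mmp14 34.5 and 34.0, Timp3 51.3 and 66.7, and Mmp2 50.8 and 46.4. The order of Mmp2 and Timp3 by their means thus turned with the length used.

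**Figure D1:**
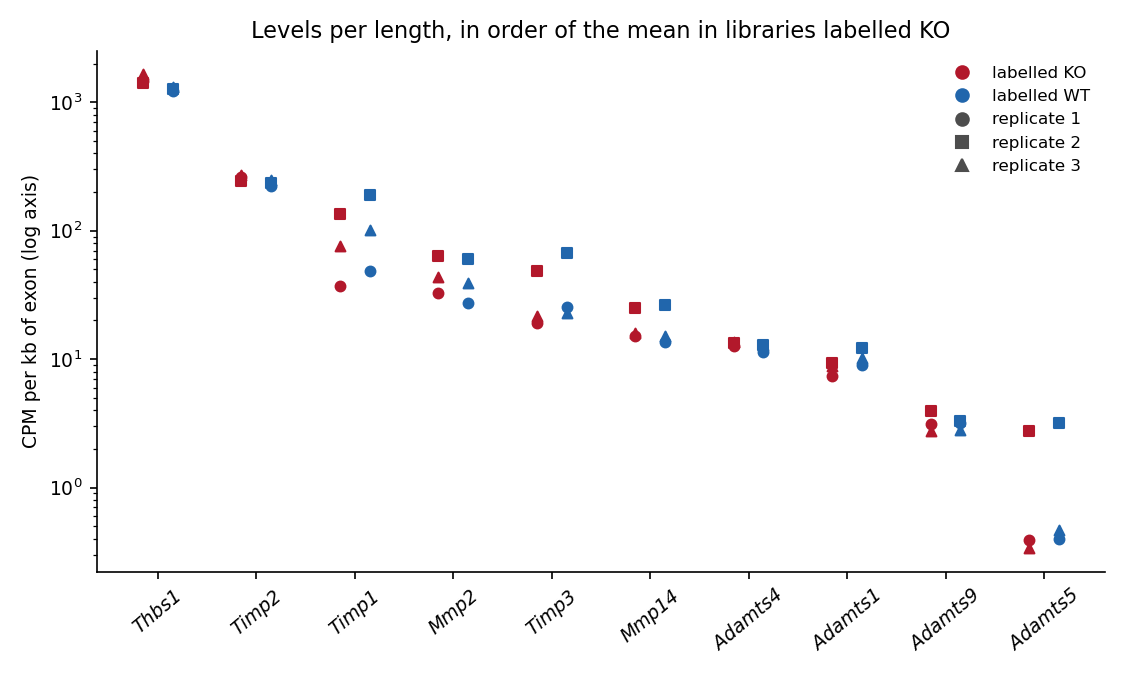
Levels of the 10 genes per kb of exon (y axis, CPM per kb, log scale) in order of their mean in KO-labelled libraries; each point is 1 library, red for KO-labelled and blue for WT-labelled, with the replicate number as its shape. Thbs1 and Timp2 lie above the others in every library, and Adamts5 splits into libraries numbered 2 and the rest.

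The comparison asked which of these transcripts differ between KO-labelled and WT-labelled cells. Without pairing, edgeR's quasi-likelihood test called 0 of the 10 genes higher and 0 lower, and DESeq2 and limma-voom also called 0. The unadjusted p was under 0.05 for 1 of the 10 with edgeR, where it was for 611 of all 12753 genes. With DESeq2 it was for 3 of the 10 and 445 of all genes, and with limma-voom for 1 and 615. Over all genes tested edgeR called 0% higher and 0.00784% lower (1 gene, Igf1, which is no member and is named after its values were seen). Same-numbered libraries deviated together, so a second fit carried the replicate number as a blocking term and is named the paired test. The paired test called 3 members higher (Thbs1, Mmp2 and Timp2), 3 lower (Adamts1, Timp1 and Timp3) and 4 in neither direction, where it called 4.81% of all 12753 genes higher and 4.01% lower, 8.81% in either direction. The median size of the log2 change, regardless of sign, was 0.18 over the 10 genes and 0.08 over all genes tested. The signed medians were 0.057 and -0.0033. The calls rest on the paired test alone, and the changes are small: the largest was that of Timp1, which fell by 25.9%. The groups did not overlap for 1 of the 10 genes, against 10.2% of all genes tested (5.25% with the KO-labelled libraries higher and 4.96% lower). The sign was the same in all 3 pairs for 8 of the 10, against 40.7% of all genes. Members were chosen with earlier results of these data known, so these counts and medians beside all genes are a description and not a test.

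**Figure D2:**
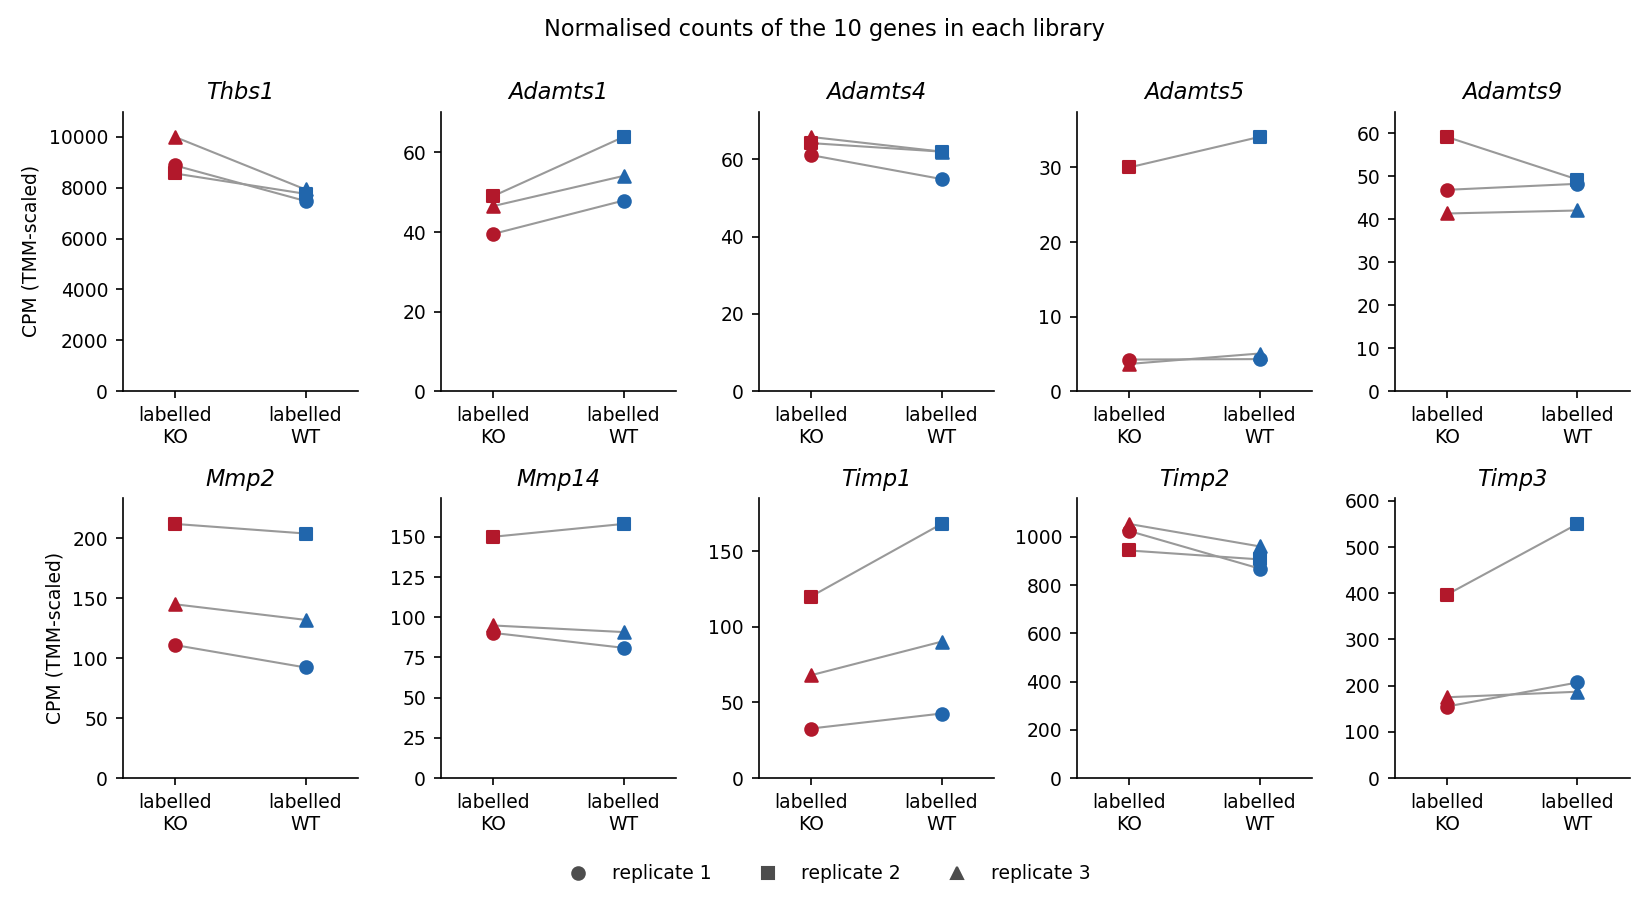
Normalised counts (y axis, CPM) of each gene in the 6 libraries; KO-labelled libraries are on the left of each panel and WT-labelled libraries on the right, and lines join libraries with the same replicate number. Thbs1 is higher in every KO-labelled library, and for Adamts5, Timp1, Timp3, Mmp2 and Mmp14 the replicate numbers differ more than the labels do.

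Thbs1 (ENSMUSG00000040152; GRCm38 chromosome 2, 118111876 to 118127133, plus strand) encodes a trimeric matrix glycoprotein that binds the receptors Cd47 and Cd36 and releases active TGF-beta from its latent form. It had 8877, 8560 and 9997 CPM in KO-labelled libraries, against 7476, 7759 and 7930 CPM in WT-labelled libraries. Every KO-labelled library lay above every WT-labelled library, and Thbs1 was the only member for which this held. By CPM it ranked 2 among the 12753 tested genes, with a share of 0.905 ± 0.0676% of all counts in KO-labelled and 0.779 ± 0.0256% in WT-labelled libraries (SD, n = 3 each). The log2 fold change was 0.24 ± 0.042 (SE) in the paired test, an 18.2% rise with an adjusted p of 7.05e-05, and 0.24 ± 0.086 (SE) with an adjusted p of 0.976 without the block. Within the pairs it was 0.25, 0.14 and 0.33, and it passed the paired test under all 9 alternatives run with the block. At 155479 to 186540 counts per library, counting error was small beside the differences between pairs.

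The 4 ADAMTS genes did not move together. Adamts1 (ENSMUSG00000022893; chromosome 16, 85793827 to 85803113, minus strand), a protease that cleaves versican and aggrecan and can release thrombospondin fragments, had 39.5, 49.0 and 46.5 CPM in KO-labelled libraries, against 47.9, 63.9 and 54.1 CPM in WT-labelled libraries. It was lower in the KO-labelled library of each pair, and the groups overlapped through KO-labelled replicate 2 and WT-labelled replicate 1. By the paired test the change was -0.29 ± 0.055 on the log2 scale (SE; adjusted p = 0.000168), so Adamts1 fell by 18.5% in KO-labelled libraries; the 3 pairs gave -0.28, -0.38 and -0.22. In each pair the 95% counting interval of the ratio, exact binomial, lay below 0, the one nearest to 0 running from -0.35 to -0.085 in pair 3. Without the block the estimate was -0.30 ± 0.13 (SE; adjusted p = 0.996), and leaving out WT-labelled replicate 2 moved it to -0.18.

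Adamts4 (chromosome 1, 171250421 to 171260637, plus strand), also called aggrecanase 1, had 61.1, 64.2 and 65.8 CPM in KO-labelled libraries, against 54.9, 62.0 and 62.0 CPM in WT-labelled libraries. It was slightly higher in each pair but did not pass: the paired log2 fold change was 0.097, with a 95% interval from -0.0066 to 0.20 and an adjusted p of 0.28. Adamts9 (chromosome 6, 92772699 to 92943492, minus strand), a widely expressed versicanase that also acts in secretion, had 46.8, 59.1 and 41.3 CPM in KO-labelled libraries, against 48.2, 49.2 and 42.0 CPM in WT-labelled libraries. Only KO-labelled replicate 2 stood out: the log2 ratio was 0.26 in pair 2, with a counting interval from 0.14 to 0.39, but -0.041 in pair 1 and -0.023 in pair 3. The paired estimate was 0.072 (95% interval -0.047 to 0.19; adjusted p = 0.548) and turned to -0.035 without pair 2.

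Adamts5 (chromosome 16, 85856173 to 85901828, minus strand), the aggrecanase that lies next to Adamts1 on the same strand, was the rarest member and the one that varied most. It had 4.24, 30.0 and 3.65 CPM in KO-labelled libraries, against 4.30, 34.1 and 5.05 CPM in WT-labelled libraries. The libraries numbered 2 were 7.61 times the mean of replicates 1 and 3 in KO-labelled and 7.30 times in WT-labelled libraries. Its counts were as low as 63 per library, and in pairs 1 and 3 the counting interval of the ratio included 0, from -0.46 to 0.42 and from -0.95 to 0.002. The paired log2 fold change was -0.20 (95% interval -0.41 to 0.0079; adjusted p = 0.263). Without the block the interval ran from -3.42 to 3.02, so a change was not detectable there. Within the 4 ADAMTS genes, Adamts1 made up 31.5%, 31.6% and 34.3% of the summed CPM per kb in KO-labelled libraries, against 37.6%, 38.4% and 38.7% in WT-labelled libraries, shares that did not overlap. Adamts4 made up 53.7%, 45.6% and 53.6% in KO-labelled and 47.5%, 41.1% and 48.9% in WT-labelled libraries, higher in each pair.

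**Figure D3:**
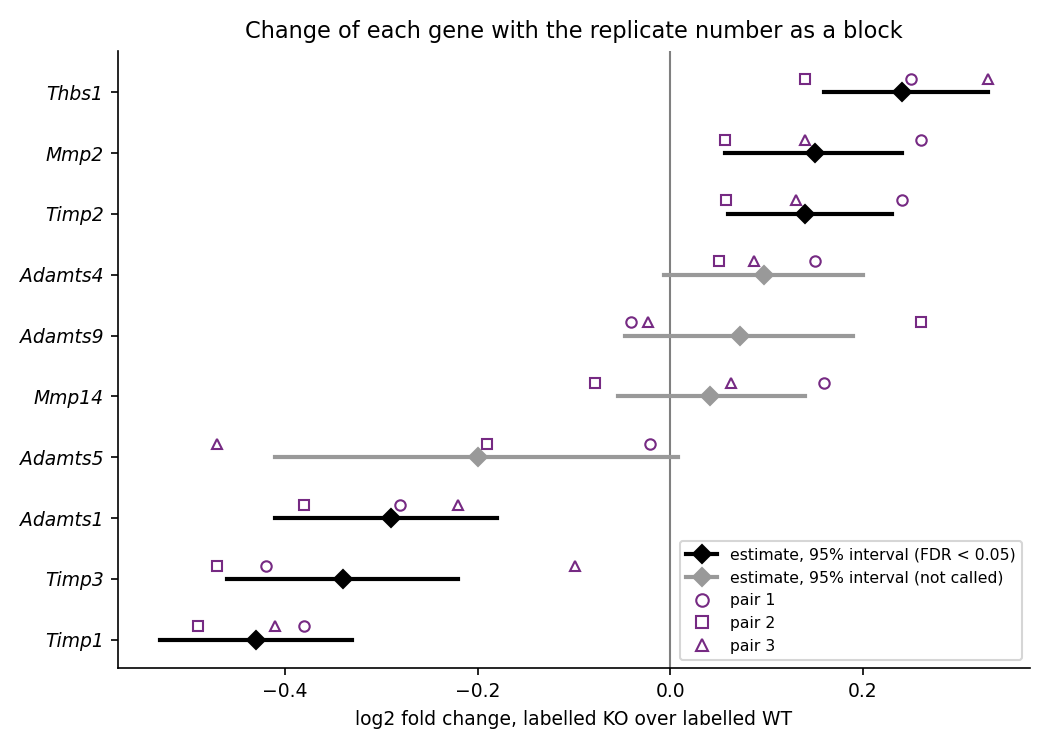
Log2 fold change (x axis, KO-labelled over WT-labelled) of each gene in the paired test; diamonds with bars are the estimate and its 95% interval, black where the adjusted p was under 0.05 and grey otherwise, and open symbols are the 3 pairs. Thbs1, Mmp2 and Timp2 lie above 0, and Adamts1, Timp3 and Timp1 lie below 0.

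Of the 2 matrix metalloproteinases, Mmp2 rose slightly in the paired test and Mmp14 did not pass. Mmp2 (ENSMUSG00000031740; chromosome 8, 92827291 to 92853420, plus strand), the secreted gelatinase A that degrades type IV collagen, had 111, 212 and 145 CPM in KO-labelled libraries, against 92.3, 204 and 132 CPM in WT-labelled libraries. The replicate numbers set its level more than the labels did, and it was higher in the KO-labelled library of each pair. The paired log2 fold change was 0.15 ± 0.045 (SE), a rise of 10.7% with an adjusted p of 0.0278, and the pairs gave 0.26, 0.057 and 0.14. This call ended with DESeq2 (adjusted p = 0.244), with scaling by library size alone (0.0827), without pair 1 (log2 fold change 0.093, adjusted p = 0.227), without pair 2 (0.0676) and at a false discovery rate of 0.01. Without the block it was 0.13 ± 0.38 (SE; adjusted p = 0.996).

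Mmp14 (chromosome 14, 54431612 to 54445364, plus strand), the membrane-type protease that activates Mmp2, had 90.3, 150 and 94.9 CPM in KO-labelled libraries, against 81.0, 158 and 90.8 CPM in WT-labelled libraries. Pairs 1 and 3 were higher, at log2 ratios of 0.16 and 0.063, and pair 2 was lower, at -0.078. The paired estimate was 0.041 (95% interval -0.054 to 0.14; adjusted p = 0.685). Mmp2 made up 68.4%, 71.5% and 73.1% of the 2 genes' summed CPM per kb in KO-labelled libraries, against 66.8%, 69.5% and 72.0% in WT-labelled libraries.

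The 3 inhibitors split, with Timp2 higher and Timp1 and Timp3 lower. Timp2 (ENSMUSG00000017466; chromosome 11, 118301069 to 118355740, minus strand), which takes part in the activation of Mmp2 at the cell surface as well as in its inhibition, had 1025, 944 and 1054 CPM in KO-labelled libraries, against 869, 907 and 961 CPM in WT-labelled libraries. It was higher in each pair, and the groups overlapped only through KO-labelled replicate 2 and WT-labelled replicate 3. The paired log2 fold change was 0.14 ± 0.041 (SE), a rise of 10.5% with an adjusted p of 0.0198; the pairs gave 0.24, 0.058 and 0.13. The call ended with scaling by library size alone (adjusted p = 0.0665), without pair 1 (log2 fold change 0.094, adjusted p = 0.189), without pair 2 (0.0826) and at a false discovery rate of 0.01.

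Timp1 (ENSMUSG00000001131; chromosome X, 20870166 to 20874735, plus strand), an inducible inhibitor of most soluble matrix metalloproteinases, had 32.8, 120 and 68.0 CPM in KO-labelled libraries, against 42.7, 168 and 90.2 CPM in WT-labelled libraries. Its level differed more between replicate numbers than between labels, at 3.66-fold from lowest to highest within the KO-labelled and 3.93-fold within the WT-labelled libraries, but each pair moved the same way and by a similar amount, -0.38, -0.49 and -0.41. The paired estimate was -0.43 ± 0.049 on the log2 scale (SE), and its adjusted p, 1.08e-08, was the lowest among the 10 genes. Under the 9 alternatives with the block the adjusted p lay between 1.73e-16 and 1.27e-05. Without the block the estimate was -0.45 ± 0.68 (SE; adjusted p = 0.996), and it turned to 0.14 without WT-labelled replicate 2. Timp1 lies within Syn1, which is on the opposite strand and had 310 counts in all, with no exon in common.

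Timp3 (ENSMUSG00000020044; chromosome 10, 86300372 to 86349506, plus strand), the inhibitor that binds to the matrix and also blocks ADAMTS proteases and sheddases, had 155, 397 and 175 CPM in KO-labelled libraries, against 207, 550 and 187 CPM in WT-labelled libraries. The libraries numbered 2 were high in both groups, and the KO-labelled library was lower in each pair. The paired log2 fold change was -0.34 ± 0.056 (SE; adjusted p = 0.000474), so Timp3 fell by 20.9% in KO-labelled libraries. The pairs were uneven, at -0.42, -0.47 and -0.099, and the adjusted p was 0.1 with DESeq2. It lies within Syn3 on the opposite strand and shares exon bases with it, and Syn3 had 229 counts in all. How strand was handled in the counting is not given, so reads from shared bases cannot be assigned with certainty.

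The make-up of the 3 TIMPs differed in the same direction in every pair. Timp2 made up 82.5%, 56.9% and 73.4% of their summed CPM per kb in KO-labelled libraries, against 75.2%, 47.5% and 66.4% in WT-labelled libraries, higher in each of the 3 pairs. Timp1 made up 11.6%, 31.7% and 20.8% in KO-labelled libraries, against 16.2%, 38.7% and 27.4% in WT-labelled libraries. The sum was 319, 426 and 369 CPM per kb in KO-labelled libraries and 297, 490 and 371 CPM per kb in WT-labelled libraries, so pair 1 and pair 2 went opposite ways. These shares are given as a description and were not tested.

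**Figure D4:**
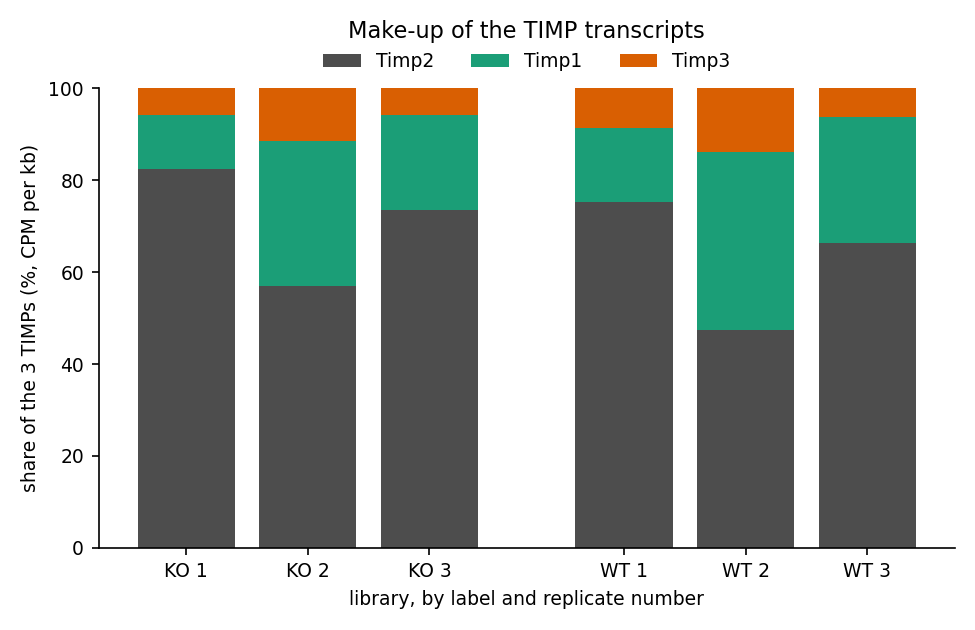
Share of each inhibitor in the summed CPM per kb of Timp1, Timp2 and Timp3 (y axis, %) in each library, KO-labelled on the left and WT-labelled on the right. Timp2 takes 82.5%, 56.9% and 73.4% in KO-labelled libraries and 75.2%, 47.5% and 66.4% in WT-labelled libraries.

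Several members, and the summed fibroblast markers, were highest in the libraries numbered 2. Relative to the mean of replicates 1 and 3, replicate 2 was 2.41 and 2.79 times as high for Timp3 in KO-labelled and WT-labelled libraries, 2.38 and 2.53 times for Timp1, 1.62 and 1.84 times for Mmp14, and 1.66 and 1.82 times for Mmp2. Thbs1, Timp2 and Adamts4 lay between 0.907 and 1.06 times in both groups. The fibroblast marker sum was lower in the KO-labelled library of every pair, at log2 ratios of -0.52, -0.49 and -0.12, and the Timp3 ratios of -0.42, -0.47 and -0.099 were likewise smallest in size in pair 3. The Timp1 ratio in pair 3, -0.41, was larger in size than the fibroblast ratio there. The fibroblast sum was mostly the collagen genes Col1a1, Col1a2, Col3a1 and Col6a3. Its other members did not all follow: Pdgfra was higher in the KO-labelled library of every pair. Dcn was higher in pair 2, at 20.7 against 13.3 CPM. The sum of 10 mural cell markers gave 0.02, -0.26 and 0.25 in the pairs, from 1446 to 1895 CPM in KO-labelled and 1426 to 2250 CPM in WT-labelled libraries. Acta2 and Tagln held most of this sum, and Tagln was lowest in the libraries numbered 2. Pdgfrb, Cspg4, Notch3, Acta2, Myh11, Des and Kcnj8 were highest in the libraries numbered 2 of both groups. Rgs5 was highest there only in KO-labelled and Cnn1 only in WT-labelled libraries. Pdgfrb had 10.5, 53.8 and 11.4 CPM in KO-labelled and 15.8, 81.3 and 10.2 CPM in WT-labelled libraries. The part of stromal transcripts in the differences of the members was not tested. Without pair 2, Thbs1 was called higher, and Adamts1, Timp1 and Timp3 lower, at log2 fold changes of 0.29, -0.25, -0.40 and -0.26. That fit keeps pair 1, where the fibroblast ratio was largest in size at -0.52, so it does not test the part of stromal transcripts either.

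**Figure D5:**
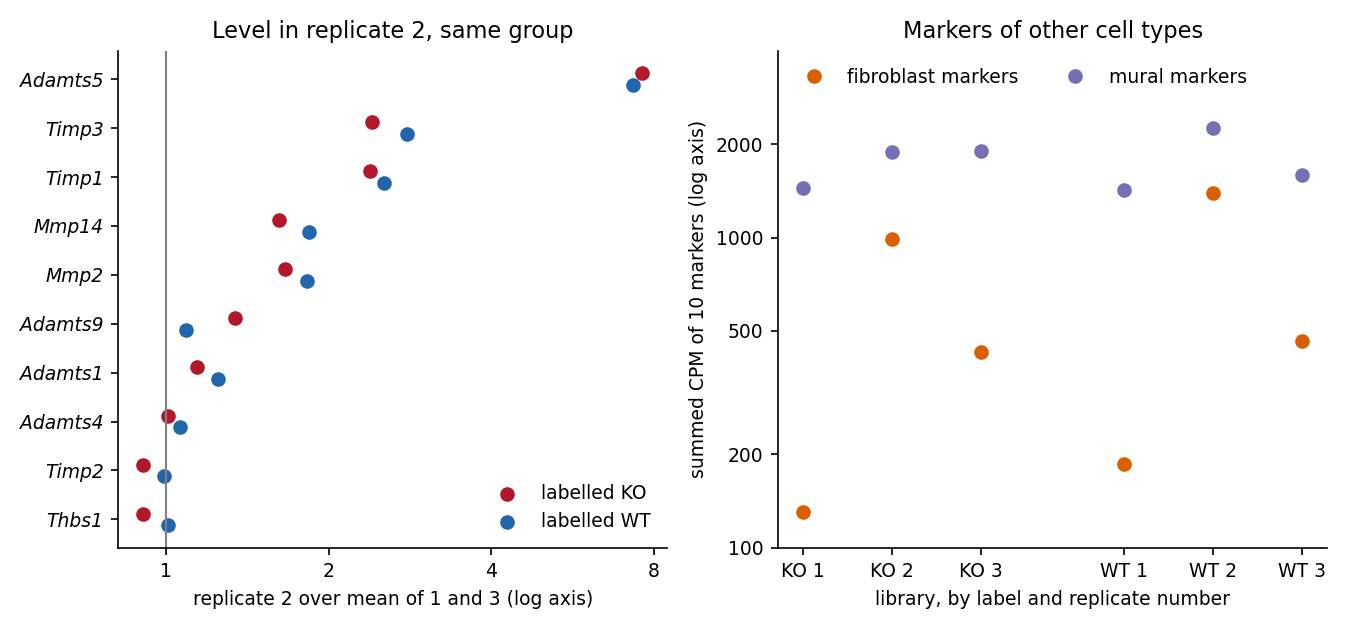
Left, level of each gene in replicate 2 over the mean of replicates 1 and 3 of the same group (x axis, log scale), red for KO-labelled and blue for WT-labelled. Right, summed CPM of 10 fibroblast and 10 mural markers (y axis, log scale) in each library; both groups have their highest fibroblast sum in replicate 2, 992 and 1397 CPM.

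The markers were counted by the paired test, which called 8.81% of all genes tested in either direction. Of the 10 fibroblast markers, 7 were tested: 1 rose (Dcn) and 3 fell (Col1a1, Col3a1 and Fap). Without pair 2, 0 rose and 3 of the 6 then tested fell, in part different genes (Col1a1, Col1a2 and Col6a3). The markers Lum, Postn and Dpt were under 1 CPM in every library. Of the 10 endothelial markers 2 rose, Tek and Emcn, and without pair 2 neither passed and Cldn5 fell. That Cldn5 call came from pair 3 (304 CPM KO-labelled, 427 WT-labelled), while pair 1 went the other way (380 and 367 CPM). Of 10 mural markers 9 were tested: 0 rose and 3 fell, and 2 fell without pair 2. Of 10 blood markers, Tyrobp, Rac2 and Cd52 had 0 counts and 4 were tested, of which 2 rose (Laptm5 and Coro1a) and 1 without pair 2. The blood marker sum was 121 to 241 CPM in KO-labelled and 89.8 to 201 CPM in WT-labelled libraries. Most of it was Laptm5, at 225, 110 and 203 CPM in KO-labelled and 187, 79.4 and 167 CPM in WT-labelled libraries. Ptprc, Itgam and Csf1r were under 1 CPM in every library, so with those at 0 counts 6 of the 10 markers were. The sum is thus no measure of blood cells.

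Over the 6 libraries, the genes most alike to the members in log2 CPM were sought among 8985 genes with a mean of at least 10 CPM (pseudocount 0.5 CPM). Timp3 was most like Wnt5a (Pearson r = 0.998), Timp1 like Fat1 (0.997), Mmp2 like Cxcl5 (0.997) and Mmp14 like Mex3a (0.996). Wnt5a had 6.04, 24 and 6.66 CPM in KO-labelled and 8.74, 35.0 and 7.85 CPM in WT-labelled libraries. Adamts1 was most like the glutamate receptor subunit gene Gria3 (0.998), Thbs1 like Slc27a1 (0.990), Timp2 like Glb1 (0.997), Adamts4 like Aldh9a1 (0.991), Adamts9 like Pign (0.994) and Adamts5 like Cd9 (1.000). These are descriptions over 6 libraries that share group and replicate number, and each gene is the best match among all those compared. Between members, values of r ran from negative to near 1. Among the highest were 0.97 for Adamts5 with Timp3, 0.97 for Adamts5 with Mmp14, 0.94 for Mmp2 with Mmp14 and 0.92 for Thbs1 with Timp2. Adamts5, Timp3, Mmp14 and Mmp2 were each highest in the libraries numbered 2 of both groups. Among the lowest were -0.54 for Adamts1 with Timp2, -0.53 for Thbs1 with Adamts1 and -0.53 for Timp2 with Timp3.

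The wider families were counted from lists chosen with earlier results of these data known. Over all 12753 genes the paired test called 4.81% higher and 4.01% lower, with a median log2 fold change of -0.0033. Each list count is given beside these shares as a description, and lists that hold members count them too. Of 5 thrombospondin genes 3 were tested, and Thbs2 was lower, at 1.38, 24.9 and 2.38 CPM in KO-labelled libraries, against 1.34, 39.2 and 2.81 CPM in WT-labelled libraries. Its paired log2 fold change was -0.53 ± 0.12 (SE; adjusted p = 0.00253), carried by pair 2 at -0.65; without pair 2 it was -0.13 (adjusted p = 0.906). Thbs3, the other tested thrombospondin, had a paired log2 fold change of -0.33 (adjusted p = 0.45).

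Of 19 ADAMTS genes 10 were tested. Of these, 0 were higher and 2 lower, Adamts1 and Adamts2, with a list median of -0.10. Among the 6 tested that are not members, 0 were higher and 1 lower. Adamts2, a procollagen processing protease, averaged 15.2 ± 17.1 CPM in KO-labelled and 20.5 ± 23.9 CPM in WT-labelled libraries (SD, n = 3 each), a paired log2 fold change of -0.41 (adjusted p = 0.00202) that did not pass without pair 2 (adjusted p = 0.349). Adamts7 and Adamts14 had 0.10 and -0.25 and did not pass (adjusted p = 0.196 and 0.23). Of 7 ADAMTS-like genes, which lack the protease domain, 6 were tested and 1 was lower: Adamtsl5 at -0.76 (adjusted p = 0.000328; 0.0627 without pair 2). Thsd4 and Adamtsl4 had -0.55 and -0.14 and did not pass (adjusted p = 0.316 and 0.342).

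Of 22 matrix metalloproteinase genes 15 were tested. Of these, 2 were higher, Mmp2 and Mmp13, and 1 lower, Mmp15, with a list median of -0.14. Among the 13 tested that are not members, 1 was higher and 1 lower. Mmp15, a membrane-type relative of Mmp14, had 42.9, 51.0 and 35.8 CPM in KO-labelled libraries, against 50.2, 53.9 and 49.0 CPM in WT-labelled libraries. It was lower in each pair, with a paired log2 fold change of -0.24 (adjusted p = 0.00535), and -0.34 without pair 2 (adjusted p = 0.00113). Mmp13, a collagenase, had 1.05, 5.08 and 2.96 CPM in KO-labelled and 1.38, 1.57 and 1.17 CPM in WT-labelled libraries, a log2 fold change of 1.06 (adjusted p = 0.0201; 0.433 without pair 2) with pair 1 going the other way at -0.40. Mmp23 had 0.42 and did not pass (adjusted p = 0.236). Mmp7, Mmp8, Mmp9 and Mmp12 were too low to be tested. Reck, a membrane-anchored inhibitor of matrix metalloproteinases, had 0.085 and did not pass (adjusted p = 0.547), and Timp4 was too low to be tested.

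Of 8 ADAM genes, membrane proteases that include targets of Timp3, 7 were tested, 1 higher and 1 lower. Adam12 was at 299, 255 and 264 CPM in KO-labelled libraries, against 276, 208 and 228 CPM in WT-labelled libraries, a paired log2 fold change of 0.20 (adjusted p = 0.000709). Adam19 was at -0.14 (adjusted p = 0.0349), and neither passed without pair 2. Adam10, the main sheddase of Notch receptors, had 0.11 and did not pass (adjusted p = 0.0777).

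Among 9 genes of activation and uptake, 8 were tested and Lrp1 alone passed. Lrp1, an endocytic receptor that clears proteases, TIMPs and thrombospondins, had 23.2, 188 and 74.5 CPM in KO-labelled libraries, against 37.4, 261 and 88.0 CPM in WT-labelled libraries. It was lower in each pair, by a paired log2 fold change of -0.44 (adjusted p = 4.06e-06), also without pair 2 (adjusted p = 2.72e-06). Its level followed the replicate numbers as that of Timp1 did. Pcsk5 and Kdr, which encodes the VEGF receptor that Timp3 can bind, had -0.73 and -0.077 and did not pass (adjusted p = 0.155 and 0.265).

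Of 14 matrix substrate genes 12 were tested, 2 higher (Fn1 and Dcn) and 4 lower (Vcan, Col1a1, Col3a1 and Bgn). Vcan, the versican that ADAMTS proteases cleave, had 4.33, 18.6 and 5.16 CPM in KO-labelled libraries, against 6.54, 30.8 and 7.19 CPM in WT-labelled libraries. It was lower in each pair, with a paired log2 fold change of -0.64 (adjusted p = 1.79e-05; 0.0411 without pair 2). Fn1, which encodes fibronectin, averaged 21983 ± 2708 CPM in KO-labelled and 19456 ± 3009 CPM in WT-labelled libraries (SD, n = 3 each), a log2 fold change of 0.18 (adjusted p = 0.00256; 0.379 without pair 2). Col1a1, a fibrillar collagen of fibroblasts, had -0.33 (adjusted p = 0.00281), and -0.21 without pair 2 (adjusted p = 0.0373). Without pair 2, 0 substrates were higher and 2 lower, and with scaling by library size alone 1 was higher and 4 lower.

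Since Fli1 is an ETS factor, the promoters of members were searched for the ETS core in 2 forms, CGGAAG and AGGAAG, and for TATAAA and the AP-1 element TGAGTCA, on both strands of the 250 bases before each RefSeq start (GRCm38.p6). The 2 ETS forms cannot lie on the same bases of 1 strand but may overlap in part. Of the 10 members 6 were matched: CGGAAG was in 1 (Mmp14), AGGAAG in 3 (Mmp14, Timp1 and Timp3), TATAAA in 1 (Adamts1) and TGAGTCA in 0. Of 32851 windows of this length, 13.6% held CGGAAG, 29.5% AGGAAG, 12.4% TATAAA and 4.46% TGAGTCA. The 2 windows printed belong to members that fell, Timp1 with matches to AGGAAG and Adamts1 with neither form searched. The Adamts1 window does hold gggaag, which was not among the forms searched, so it is not a window without any ETS core. Capitals mark AGGAAG. They run 5′ to 3′ on the gene's strand, chrX:20869916-20870165 (plus) for Timp1 and chr16:85803114-85803363 (minus) for Adamts1.
Timp1: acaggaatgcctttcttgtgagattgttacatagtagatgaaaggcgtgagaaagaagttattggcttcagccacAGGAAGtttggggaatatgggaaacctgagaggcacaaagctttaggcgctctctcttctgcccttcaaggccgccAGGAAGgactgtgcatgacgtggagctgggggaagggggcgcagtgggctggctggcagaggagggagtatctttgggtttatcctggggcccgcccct
Adamts1: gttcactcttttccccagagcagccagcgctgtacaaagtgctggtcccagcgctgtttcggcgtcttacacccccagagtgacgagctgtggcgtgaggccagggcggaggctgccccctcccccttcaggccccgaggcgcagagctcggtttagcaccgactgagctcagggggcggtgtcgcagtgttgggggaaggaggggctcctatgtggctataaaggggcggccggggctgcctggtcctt
A match is a description of these letters and not a site of binding.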

How the data were processed

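The deposited table held raw counts per gene symbol in 6 columns, not normalised by the authors; column names matched the labels of 1 library each. Per the submitters' processing notes, the tools were STAR 2.6.1d, Subread 1.6.4 with its featureCounts, FastQC 0.11.8 and Trim Galore 0.6.4; mm10 and GRCm38 are the builds named. Libraries came from either a non-stranded or a stranded kit, per the labels' protocols; the kit of each library, the gene models and how strand and multi-mapping reads were handled are not given in these sources.

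In R 4.3.3, genes passing filterByExpr (12753) were scaled by TMM (factors 0.983 to 1.024) and compared with edgeR 4.0.16's robust quasi-likelihood F test, with Benjamini-Hochberg adjustment over all genes at a false discovery rate of 0.05. SEs are the log2 fold change over the root of F. Lengths came from GENCODE M21 (95.8% of symbols matched). Every pair of libraries differed by more than counting noise (chi-square over its degrees of freedom 5.68 to 42.8). Deviations from group means correlated at 0.776, 0.857 and 0.652 between same-numbered libraries, and this, not the labels, is the ground for pairing. The paired test had 2 residual degrees of freedom, against 4 without the block, and lowered the biological coefficient of variation to 0.0383, against 0.189, so its small p-values rest on a spread pooled across genes. Alternatives used DESeq2 1.42.0, limma 3.58.1 (voom), other scalings and filters, and left-out libraries. Counting intervals are 95% and cover counting error only. Besides the members and Fli1, up to 3 genes per list with the smallest paired p, and the most alike gene of each member, are named. Members and lists were chosen with earlier results of these data known.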

Additional observations from a re-analysis of the deposited data

How the results depend on the processing

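Without the block, 0 members passed under any alternative other than the replicate block, which called 3 higher and 3 lower. Over all genes, where 0 were higher and 1 lower, DESeq2 gave 12 and 7, limma-voom and a false discovery rate of 0.01 gave 0 lower, leaving out 1 library gave 0 to 1 lower, and the replicate block gave 613 and 511. The cause was not tested. Leaving out 1 library turned the direction of Adamts5 (-1.87 to 1.43), Adamts9 (-0.074 to 0.19), Mmp2 (-0.16 to 0.47), Mmp14 (-0.25 to 0.37), Timp1 (-1.0 to 0.14) and Timp3 (-0.93 to 0.29); library size alone turned Mmp14 to -0.0058. In the paired test, counts over all genes were 388 higher and 259 lower at a false discovery rate of 0.01, 262 and 111 with DESeq2, 471 and 734 with library size alone, and 339 to 603 and 205 to 600 when a pair was left out, the lowest of each without pair 2. Members called higher numbered 1 at 0.01 and with library size alone, and 1 to 3 when a pair was left out (Thbs1 alone without pair 1 or pair 2). Leaving out a pair turned Mmp14 (-0.016 to 0.11, without pair 1) and Adamts9 (-0.035 to 0.13, without pair 2). Counts of Adamts5, from 63 to 718 per library, limit its precision. List counts without pair 2 and with library size alone were added after seeing the data.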
